A study of Homo sapiens with 4 samples.

Results

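Semaphorins, plexins and neuropilins were followed as 10 genes of the 19729 in the deposited tables: the semaphorins SEMA3F, SEMA3B, SEMA3C, SEMA4B and SEMA4D, the neuropilins NRP1 and NRP2, and the plexins PLXNA1, PLXNB1 and PLXNB2. The list was chosen on measured values of these same libraries, as SEMA3F with other semaphorins and the receptors that could read it, so the values of the 10 genes are a description and carry no test. RNA came from HT-29, a microsatellite-stable colorectal cancer line with mutant BRAF and mutant APC, stably transduced with a lentivirus for a doxycycline (DOX)-inducible shRNA. The control cells carried a non-silencing (NonS) shRNA and the APC shRNA cells a hairpin against APC. Cells of both groups were at passage 3 to 5 after transduction and received 500 ng/ml DOX for 72 h, with 2 biological duplicates (I and II) in each group and 4 libraries in all. The comparison asks how RNA levels differ once APC, the scaffold that keeps β-catenin low, is silenced.

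Semaphorins are guidance proteins, first known from growing axons, that are either secreted or anchored in the membrane. Plexins are their receptors: they carry a GTPase-activating domain inside the cell and act on small GTPases and the cytoskeleton. Most secreted class 3 semaphorins bind plexins through neuropilins, which also bind vascular endothelial growth factors, whereas class 4 semaphorins are membrane-bound and mainly bind B-type plexins directly. In epithelium these proteins take part in cell migration, adhesion and vessel growth, and SEMA3F and SEMA3B have been studied as tumour suppressors of the short arm of chromosome 3.

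SEMA3F, SEMA3B and SEMA4B differed the most between the groups, and the stretch before the start nearest to the first base of each is shown for that reason. That start lies 13 bases from the first base for SEMA3F and 94 for SEMA3B. For SEMA4B it lies 24316 bases away, so the stretch at the first base of that gene is not shown. A second start, inside SEMA3F, is shown as the only window of the 10 genes with the TCF7L2 core named below. Further starts of these 3 genes are not printed, and none of them held that core. The sequences are from RefSeq (GRCh38.p14), read 5′ to 3′ on the strand of the gene, and hold what lies outside exons in the 250 bases before each start. Capitals mark the GC box GGGCGG and the TCF7L2 core CTTTGAT, found on both strands. TCF7L2 is a DNA-binding partner of β-catenin.
SEMA3F, start nearest to the gene's first base, chr3:50154808-50155044, plus strand: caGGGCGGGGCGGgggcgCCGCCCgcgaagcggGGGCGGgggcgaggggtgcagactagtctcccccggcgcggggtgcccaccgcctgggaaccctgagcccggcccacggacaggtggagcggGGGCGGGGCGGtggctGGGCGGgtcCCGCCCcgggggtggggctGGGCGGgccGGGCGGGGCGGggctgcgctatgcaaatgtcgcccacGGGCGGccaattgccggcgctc
SEMA3F, start inside the gene, chr3:50158769-50159018, plus strand, intronic: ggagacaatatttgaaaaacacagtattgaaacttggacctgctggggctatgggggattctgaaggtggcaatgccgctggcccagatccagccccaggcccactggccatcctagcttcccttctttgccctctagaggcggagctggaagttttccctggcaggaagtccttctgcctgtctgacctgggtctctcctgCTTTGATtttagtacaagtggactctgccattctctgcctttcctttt
SEMA3B, chr3:50267402-50267557, plus strand: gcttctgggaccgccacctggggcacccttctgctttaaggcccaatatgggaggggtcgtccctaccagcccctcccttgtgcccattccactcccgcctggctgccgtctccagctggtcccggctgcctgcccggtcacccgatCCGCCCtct
SEMA4B, chr15:90184670-90184917, plus strand, intronic to a longer transcript: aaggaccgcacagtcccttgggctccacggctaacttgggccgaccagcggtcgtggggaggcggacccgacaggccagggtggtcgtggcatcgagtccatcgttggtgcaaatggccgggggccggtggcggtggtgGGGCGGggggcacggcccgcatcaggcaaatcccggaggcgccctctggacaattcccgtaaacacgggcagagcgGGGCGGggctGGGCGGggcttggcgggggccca
The first SEMA3F stretch held 12 GC boxes in 237 bases, counting those that overlap one another. The SEMA3B stretch held 1 in 156 bases and the SEMA4B stretch 3 in 248. With its exonic part included, the full 250-base window of SEMA3B held 4. The intronic SEMA3F stretch, 3974 bases into the gene, held the TCF7L2 core once and no GC box. Full windows of 250 bases, exonic parts included, were found for 9 of the 10 genes, 19 windows in all. The GC box stood in 13 of these 19, beside 42.6% of all 35116 RefSeq windows. The TCF7L2 core stood in 1 of the 19, the SEMA3F one, beside 2.26% of all windows, and the E-box CACGTG in 1, that of SEMA4D, beside 6.34%. The GC box and the TCF7L2 core did not overlap in the stretches printed. A match of letters is not a bound site, and binding was not measured here.

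The deposited values are whole numbers on a score whose scale is not stated. Their sums over genes ran from 398338 to 413595. Multiplied by transcript length in kb they summed to between 980841 and 984873, so that a value behaves as one per kb of transcript and can be set beside that of another gene. APC itself was listed at 3 in NonS I and at 0 in the other 3 libraries, so NonS II and the APC shRNA libraries cannot be told apart by it. In the paper, the hairpin lowered both the mRNA and the protein of APC in HT-29 cells. The Wnt target AXIN2 read 16 and 22 against 124 and 178. Of the markers of the labelled tissue, all 8 of colonic epithelium were above 0 in some library, with sums of 3262 to 3928 in NonS and 4091 to 4160 in APC shRNA, though CDX1 read 2 and 2 against 0 and 0 and CDX2 0 and 0 against 2 and 4. All 5 fibroblast and all 5 endothelial markers were at 0 in every library, and the 5 blood markers summed to 3 to 7, nearly all from CD68.

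SEMA3F and SEMA3B, both secreted class 3 semaphorins, were about 4 times higher in APC shRNA than in NonS cells, and the class 4 semaphorin SEMA4B was at 0.43 of its NonS level. The means of the plexins PLXNA1, PLXNB1 and PLXNB2 lay between 0.823 and 1.20 of those in NonS cells. Neuropilin RNA was at the bottom of the scale in every library. In bulk RNA, fewer cells with a transcript and less transcript per cell cannot be told apart.

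SEMA3F (chromosome 3, 50155045 to 50189075 in GRCh38, plus strand) encodes a secreted semaphorin that repels migrating cells. It read 5 and 6 in NonS I and II, against 20 and 25 in APC shRNA I and II. Both APC shRNA values lay far above both NonS values. The means were 5.5 ± 0.707 and 22.5 ± 3.54 (SD, n = 2 each), a ratio of 4.09, and the difference of log2(value + 1) was 1.85 (SE 0.16). The ratio was 4.0 between libraries numbered I and 4.17 between those numbered II. Its exons share 110 bases with the antisense transcript SEMA3F-AS1, which has no value here.

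SEMA3B lies on the same strand, at 50267558 to 50277546 of chromosome 3, and encodes a secreted relative of SEMA3F. It read 7 and 14 in NonS I and II, against 41 and 53 in APC shRNA I and II. The groups did not overlap, but the NonS duplicates differed 2-fold from one another. With means of 10.5 ± 4.95 and 47.0 ± 8.49 (SD, n = 2 each) the ratio was 4.48, and the log2(value + 1) difference was 2.12 (SE 0.39). The ratio was 5.86 between libraries numbered I and 3.79 between those numbered II. The gene shares 62 exonic bases with the microRNA gene MIR6872 on the same strand.

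SEMA3C (chromosome 7, 80742538 to 80922359, minus strand), which encodes a secreted semaphorin that can promote rather than repel migration, followed the replicate number more than the condition. It read 10 and 4 in NonS I and II, against 17 and 8 in APC shRNA I and II, so the groups overlapped. Replicate I was 2.5 times replicate II in NonS and 2.13 times in APC shRNA cells. Within libraries of the same number, APC shRNA exceeded NonS 1.7-fold and 2.0-fold. The means were 7.0 ± 4.24 and 12.5 ± 6.36 (SD, n = 2 each). Its overall mean of 9.75 was just under the minimum of 10 for the fit. Of the 5376 genes that entered the fit, 37 (0.688%) were likewise at least 2-fold higher in replicate I in both conditions. Their median GC content was 39.1%, beside 51.9% over the genes fitted, and that of SEMA3C was 39.4%. What sets the replicates apart was not tested.

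SEMA4B (chromosome 15, 90160604 to 90229679, plus strand), a membrane-bound class 4 semaphorin, was the highest semaphorin in NonS cells. It read 51 and 63 in NonS I and II, against 24 and 25 in APC shRNA I and II. Both APC shRNA values were below both NonS values and nearly equal to one another. The means of 57.0 ± 8.49 and 24.5 ± 0.707 (SD, n = 2 each) gave a ratio of 0.43 and a log2(value + 1) difference of -1.18 (SE 0.13). The ratio was 0.471 between libraries numbered I and 0.397 between those numbered II.

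SEMA4D (chromosome 9, 89360787 to 89498130, minus strand), the ligand of PLXNB1, was low and nearly level. It read 4 and 5 in NonS I and II, against 5 and 6 in APC shRNA I and II, and the groups shared the value 5. The means were 4.5 ± 0.707 and 5.5 ± 0.707 (SD, n = 2 each), a step of 1 unit on a scale of whole units.

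Both neuropilins, the co-receptors of class 3 semaphorins, were at or near 0. NRP1 (chromosome 10, 33177492 to 33336262, minus strand) was listed at 1 in each of the 4 libraries. Only 7.14% of the 12799 genes above 0 in any library had a lower NonS mean. NRP2 (chromosome 2, 205681990 to 205798133, plus strand), the neuropilin that SEMA3F is best known to bind, was listed at 0 in every library. Both share exonic bases with antisense genes, 561 for NRP1 and 147 for NRP2. The depth in reads is unknown, so a listed 0 does not show that a transcript is absent.

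Plexins were the better expressed receptors, and each stayed within a narrow band. PLXNA1 (chromosome 3, 126988594 to 127037392, plus strand), an A-type plexin that pairs with neuropilins, read 30 and 34 in NonS I and II, against 34 and 38 in APC shRNA I and II. The groups met at 34, with means of 32.0 ± 2.83 and 36.0 ± 2.83 (SD, n = 2 each) and a log2(value + 1) difference of 0.17 (SE 0.11). PLXNB1 (chromosome 3, 48403854 to 48430051, minus strand), the receptor of SEMA4D, read 26 and 28 in NonS I and II, against 34 and 31 in APC shRNA I and II. The APC shRNA values were higher without overlap, with means of 27.0 ± 1.41 and 32.5 ± 2.12 (SD, n = 2 each) and a difference of 0.26 (SE 0.08).

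PLXNB2 (chromosome 22, 50274979 to 50307627, minus strand), a B-type plexin of many epithelia, was the highest of the 10 genes in both groups. It read 57 and 73 in NonS I and II, against 53 and 54 in APC shRNA I and II. The APC shRNA values were lower without overlap, but the NonS duplicates stood farther from one another than NonS I stood from the APC shRNA values. The means were 65.0 ± 11.3 and 53.5 ± 0.707 (SD, n = 2 each), and the log2(value + 1) difference was -0.27 (SE 0.15).

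**Figure D1:**
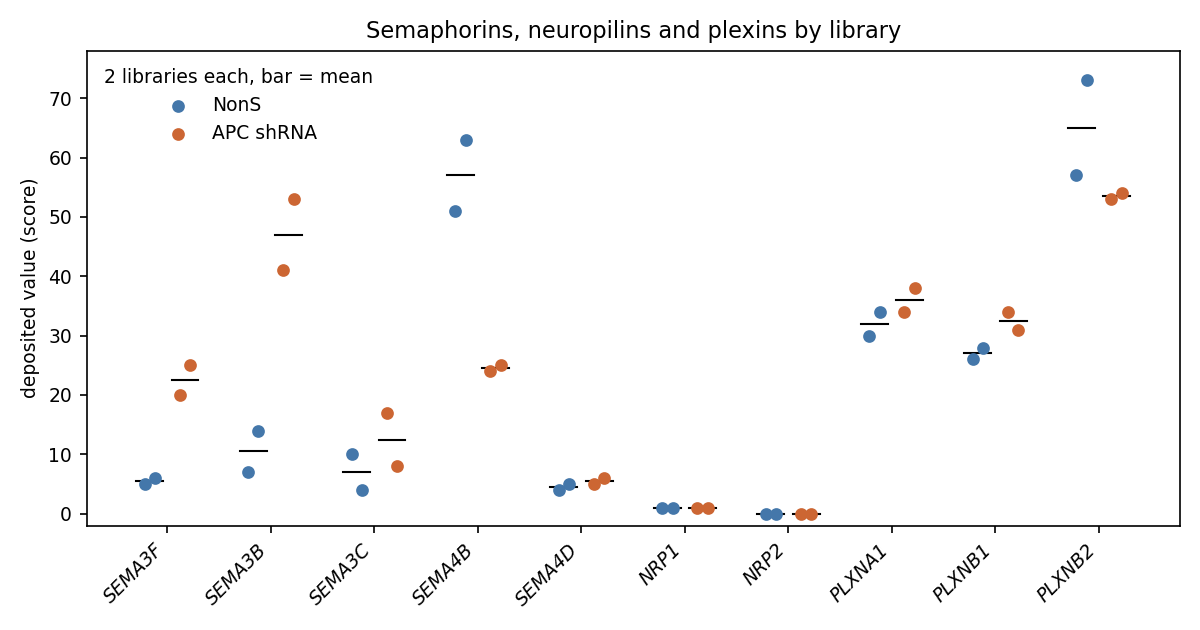
Deposited value (score, linear axis) of the 10 genes in each of the 4 libraries. Points are libraries, blue for NonS and orange for APC shRNA, and black bars are means of 2. SEMA3F and SEMA3B go from means of 5.5 and 10.5 to 22.5 and 47, SEMA4B from 57 to 24.5, and NRP1 and NRP2 lie at 1 and 0.

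Of the 10 genes, 6 had a mean of at least 10 and entered the fit over 5376 genes with limma. At a Benjamini-Hochberg adjusted p under 0.05 the fit placed 1 of the 6 higher and 1 lower in APC shRNA cells, beside 4.33% and 3.70% of all genes fitted. With any 1 library left out 1 group holds a single library, and no call is read from such a fit. The libraries of the groups did not overlap for 3 of the 6 in the higher and 2 in the lower direction, beside 33.0% and 27.5% of all genes fitted. Nothing is read from these counts, because the genes were picked on the same contrast. With 2 libraries against 2, the smallest two-sided p of an exact permutation test is 0.333 for any gene. The median difference over all genes fitted was 0.03.

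In NonS cells PLXNB2 (65.0) and SEMA4B (57.0) led the order of levels and overlapped one another. PLXNA1 (32.0) and PLXNB1 (27.0) came next, apart from their neighbours in the order without overlap. SEMA3B, SEMA3C, SEMA3F and SEMA4D followed with means from 10.5 down to 4.5, and each overlapped the next. Against the 12799 genes above 0, the NonS mean of PLXNB2 exceeded 93.4%, that of SEMA4B 92.1%, that of SEMA3B 59.1% and that of SEMA3F 41.9%. In APC shRNA cells the means of SEMA3B and PLXNB2, 47.0 and 53.5, had drawn close and the values overlapped, and SEMA3F and SEMA4B, at 22.5 and 24.5, also overlapped. Both pairs had been apart in NonS cells.

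The balance of secreted and membrane-bound semaphorins changed with these 3 genes. Summed over all 7 class 3 genes, values were 26 and 26 in NonS I and II, against 82 and 89 in APC shRNA I and II, a ratio of means of 3.29. Over the 6 class 4 genes the sums were 88 and 106 against 67 and 73, a ratio of 0.722. Class 3 made up 22.8% and 19.7% of all semaphorin values in NonS I and II, against 54.7% and 54.3% in APC shRNA I and II. The larger share passed from class 4 to class 3. These sums contain the genes that were picked on this contrast and are given as a description.

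SEMA4B set the direction of class 4. Its part of the class 4 sum went from 58.0% and 59.4% in NonS I and II to 35.8% and 34.2% in APC shRNA I and II. Without SEMA4B, class 4 summed to 37 and 43 in NonS and 43 and 48 in APC shRNA libraries, groups that touched at 43. In class 3, SEMA3F and SEMA3B together summed to 12 and 20 in NonS and 61 and 78 in APC shRNA libraries. All 20 semaphorins together summed to 114 and 132 in NonS and to 150 and 164 in APC shRNA libraries.

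Receptor sums were nearly level beside those of the ligands. All 9 plexins summed to 136 and 163 in NonS I and II, against 148 and 150 in APC shRNA I and II, means of 149.5 and 149.0 (SD 19.1 and 1.41). PLXNA1, PLXNB1 and PLXNB2 with PLXNA3, a further A-type plexin, held 91.3% to 91.9% of this sum in every library. The A-type sums were 47 and 54 against 55 and 58, and the B-type sums 84 and 103 against 90 and 88.

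Of the other 15 semaphorins, 7 were at 0 in every library and 2 reached the minimum of the fit, and 1 of these 2 passed the test. SEMA4C, a class 4 semaphorin and ligand of PLXNB2, rose from 5 and 6 in NonS I and II to 13 and 16 in APC shRNA I and II. Its difference was 1.25 (SE 0.15, adjusted p = 0.0483 with limma and Benjamini-Hochberg adjustment), opposite in direction to SEMA4B. SEMA4G read 24 and 27 against 20 and 20 (difference -0.33, SE 0.08, adjusted p = 0.0974 with limma) and did not pass. Among the semaphorins too low for the fit, SEMA3A read 3 and 1 against 4 and 3, SEMA3E 1 and 1 against 0 and 0, and SEMA4A 3 and 4 against 4 and 5. The paper's own list, from DESeq2 on read counts, holds SEMA3E as lower and SEMA3B as higher after APC silencing. SEMA4F was at 1 throughout, SEMA6C at 0 in NonS and 1 in APC shRNA libraries, and SEMA7A at 1 in APC shRNA II alone. Among the other plexins, PLXNA3 read 12 and 14 against 15 and 14 (difference 0.15, adjusted p = 0.369 with limma) and did not pass, and 2 of 6 were at 0 throughout. PLXNA2 read 5 and 6 against 6 and 6, PLXNB3 1 and 2 against 3 and 3, and PLXND1, the receptor of SEMA3E, 5 and 6 against 3 and 4.

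The pathway around the 10 genes was read from 79 related genes in all, the other semaphorins and plexins included, of which 29 entered the fit. Of these, 3 rose, 1 fell and 25 did not pass, beside 4.33% and 3.70% of all genes fitted, and the median difference was 0.04 beside 0.03. Libraries did not overlap for 9 in the higher and 8 in the lower direction, shares near the 33.0% and 27.5% of all genes fitted. Among transducers of plexin signals, 2 of the 18 fitted rose and 1 fell, few genes to set beside the same 4.33% and 3.70%. LIMK1, a kinase that acts on cofilin, rose from 12 and 13 in NonS to 22 and 26 in APC shRNA libraries (difference 0.89, SE 0.11, adjusted p = 0.0490 with limma). CDK5, a kinase that phosphorylates collapsin response mediators, rose from 18 and 20 to 29 and 30 (0.61, SE 0.08, adjusted p = 0.0487 with limma), and PAK1, a kinase downstream of RAC1, fell from 35 and 37 to 25 and 26 (-0.48, SE 0.06, adjusted p = 0.0487 with limma). DPYSL2, a collapsin response mediator, read 13 and 11 in NonS and 25 and 33 in APC shRNA libraries (1.20, SE 0.18, adjusted p = 0.0589 with limma) and did not pass. Nor did MICAL1, an oxidoreductase that takes actin filaments apart, at 8 and 10 against 15 and 15 (0.69, adjusted p = 0.0700 with limma), or RRAS, a small GTPase that plexins inactivate, at 34 and 55 against 23 and 31 (-0.68, adjusted p = 0.236 with limma).

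These 4 calls lie close to the threshold, as does every call of the main fit. The smallest adjusted p over all genes fitted was 0.0423 with limma. Over the other settings with all 4 libraries, the adjusted p from limma ran from 0.0027 to 0.0646 for SEMA4C and 0.00322 to 0.066 for LIMK1. It ran from 0.0046 to 0.0537 for CDK5 and 0.00859 to 0.0563 for PAK1. Without any 1 of the 4 libraries the differences of these 4 genes kept their directions. Such a fit has a single library in 1 group, so whether a gene passes in it is not read. DPYSL2, MST1R, ARHGEF11 and MICAL1 stood on the other side of the threshold and crossed it under some settings. ARHGEF11, a further transducer, read 11 and 11 in NonS and 14 and 14 in APC shRNA libraries (0.32, adjusted p = 0.0608 with limma). It passed with no filter and with at least 10 in every library (adjusted p = 0.00659 and 0.0481 with limma). The adjusted p from limma fell to 0.0353 with median-of-ratios scaling, 0.0307 with equal totals and 0.0271 with a GC content correction for DPYSL2, and to 0.0494 with equal totals and 0.0475 with the GC content correction for MICAL1.

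Of 11 partners that plexins and neuropilins bind, 4 entered the fit and none passed the test at the main settings, with a median difference of -0.55. MST1R, a receptor tyrosine kinase that binds B-type plexins, read 22 and 25 in NonS and 14 and 15 in APC shRNA libraries (-0.66, adjusted p = 0.0543 with limma). It passed with median-of-ratios scaling, equal totals and the GC content correction (adjusted p = 0.0409, 0.0291 and 0.0310 with limma). With 1 library left out the difference of MST1R ran from -0.75 to -0.57. Its relative MET read 51 and 47 against 37 and 18 (-0.89, SE 0.40, adjusted p = 0.223 with limma), and the APC shRNA duplicates lay far apart. ITGB1 read 87 and 72 against 71 and 47, and ERBB2, a partner of PLXNB1, 37 and 47 against 50 and 55, with adjusted p = 0.313 and 0.235 from limma. The vascular receptors KDR, FLT1 and FLT4, which work with neuropilins in endothelium, were at 0 in every library, as were the adhesion partners L1CAM, NRCAM and CHL1.

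Other ligands of neuropilins and the proteases that cut semaphorins were likewise without calls at the main settings. VEGFA read 29 and 32 in NonS and 20 and 28 in APC shRNA libraries (-0.35, adjusted p = 0.301 with limma), and VEGFB 23 and 33 against 23 and 30 (-0.07, adjusted p = 0.864 with limma). FURIN, the convertase that processes class 3 semaphorins, read 20 and 30 against 15 and 21 (-0.44, adjusted p = 0.355 with limma). PCSK7 read 15 and 16 against 17 and 16 (0.08, adjusted p = 0.425 with limma).

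**Figure D2:**
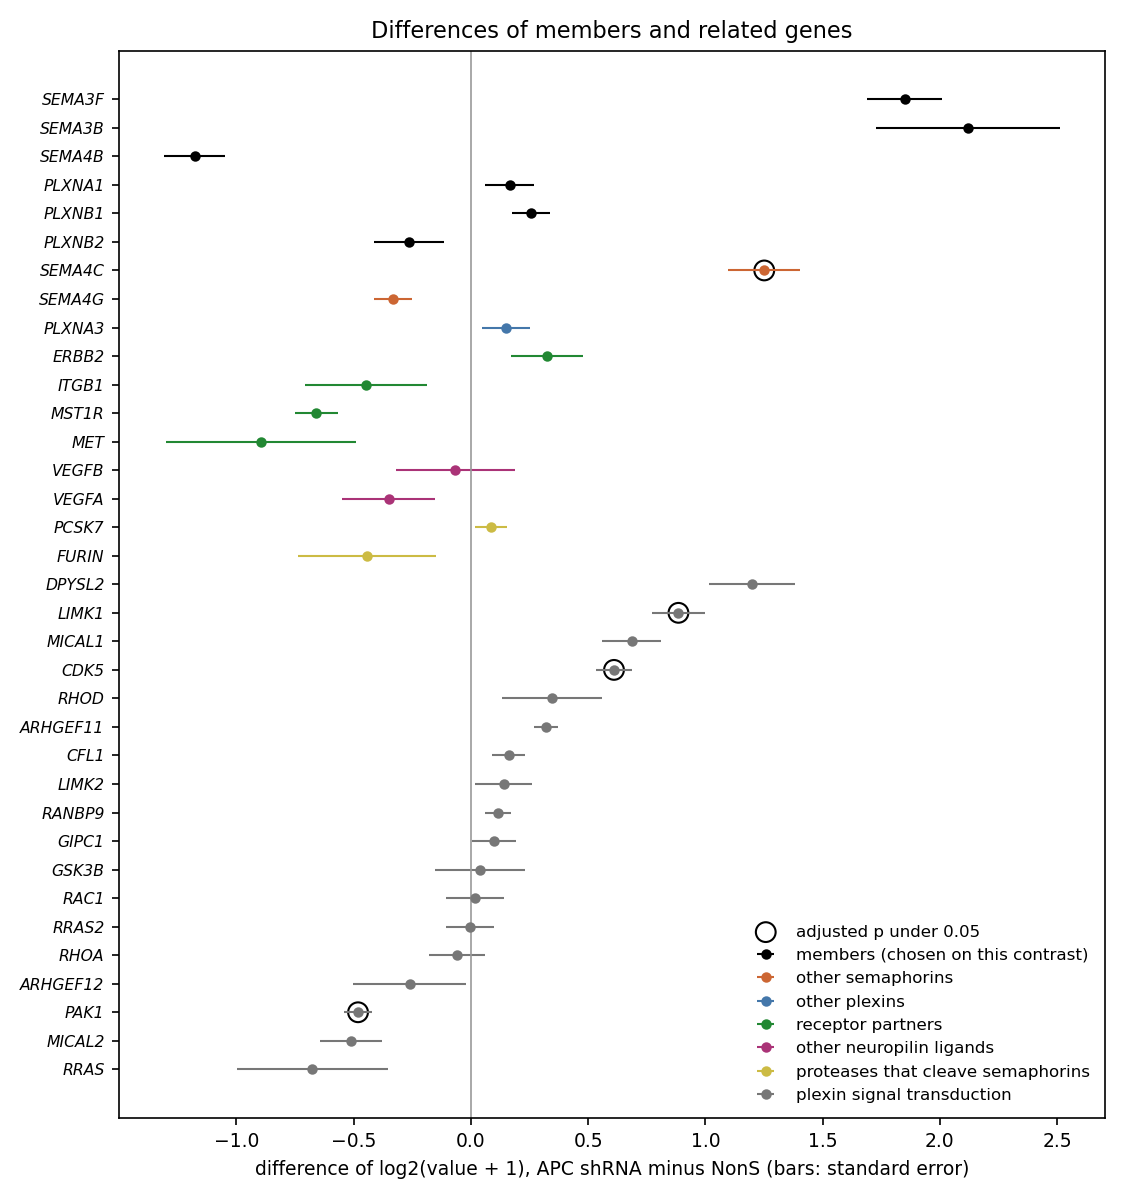
Difference of log2(value + 1), APC shRNA minus NonS, with its standard error, for the 6 members and 29 related genes that entered the fit, coloured by list. Rings mark the 4 related genes with an adjusted p under 0.05 (SEMA4C, LIMK1 and CDK5 higher, PAK1 lower). SEMA3F, SEMA3B and SEMA4B lie at 1.85, 2.12 and -1.18, and the 3 plexins between -0.27 and 0.26.

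SEMA3F and SEMA3B are neighbours, with 78.5 kb between the end of the one and the start of the other, and 4 of the 10 genes lie on chromosome 3. GENCODE v29 places 7 genes between them, 3 of which have values. GNAT1 and SLC38A3 were at 0 in every library. GNAI2 (50226292 to 50259355), a G-protein subunit, read 37 and 45 in NonS I and II, against 62 and 69 in APC shRNA I and II (0.67, SE 0.13, adjusted p = 0.0779 with limma). It did not pass the test at the main settings, although its groups did not overlap. It passed with equal totals, the GC content correction and the replicate block (adjusted p = 0.0446, 0.0485 and 0.0479 with limma). With median-of-ratios scaling it did not (adjusted p = 0.0585 with limma). The differences of SEMA3F and SEMA3B, 1.85 and 2.12, were larger than that of GNAI2 in these libraries, but this was not tested.

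A wider window of 500 kb on each side of SEMA3F, chosen after the values were seen, held 11 other genes that entered the fit. Their differences ran from -0.66 (MST1R) to 1.14 (HYAL2), with a median of 0.18, so none reached those of SEMA3F and SEMA3B. The groups did not overlap for 5 in the higher and 1 in the lower direction, beside 33.0% and 27.5% of all genes fitted. With limma, 3 were called, all higher in APC shRNA cells, beside 4.33% of all genes fitted. HYAL2, a hyaluronidase, went from 8 and 9 to 19 and 21 (adjusted p = 0.0428), TUSC2 from 15 and 15 to 20 and 20 (adjusted p = 0.0483) and TMEM115 from 11 and 12 to 17 and 17 (adjusted p = 0.0490), all from limma. All 3 lie close to the threshold. No test of the region is drawn from a window picked in this way.

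The profile of SEMA3F over the 4 libraries was compared with that of each gene fitted, by the Euclidean distance of centred log2(value + 1). The nearest was TP53INP2 (4, 5, 16 and 20 in NonS I and II and APC shRNA I and II, distance 0.070), followed by SPNS2 (24, 29, 90 and 100, distance 0.123). CADM4 (5, 5, 19 and 24), RHOB (18, 20, 55 and 75) and TUBB3 (4, 5, 14 and 19) came next, at distances of 0.165, 0.179 and 0.206. With 4 libraries in 2 groups, any gene that rose about 4-fold with little spread between duplicates resembles SEMA3F.

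SEMA3F, SEMA3B, SEMA4B and the 3 plexins are GC-rich, with 61.3% to 64.8% GC in their exons beside a median of 51.9% over the genes fitted. The difference between the groups was related to GC content across genes (Spearman 0.24 over 5364 genes, which are not independent replicates). Between duplicates, replicate I minus II was related to GC content at Spearman -0.49 in NonS and -0.08 in APC shRNA cells. The NonS duplicates thus differed with GC content more strongly than the groups did. Why they did was not tested. After a correction for GC content the differences of SEMA3F, SEMA3B and SEMA4B were 1.79, 2.05 and -1.23, close to the values without it.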

How the data were processed

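The 4 libraries were grouped by their titles. The authors sequenced stranded mRNA libraries with 50-base single reads, filtered and trimmed the reads, mapped them with TopHat2 to human assembly 38, although the submitters' processing notes list hg19, and counted them with htseq-count on GENCODE v29. The whole numbers deposited for each gene are treated here as a score: in low genes the variance between duplicates was 0.484 and 0.364 times that of independent counts, so depth is unknown and no counting interval can be given. The authors' deposited table of fold changes and p-values was not used.

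Genes with a mean of at least 10 were compared on log2(value + 1), a scale that understates changes of low genes, with limma 3.58.1 (R 4.3.3, lmFit and eBayes with trend, condition as the only term), Benjamini-Hochberg adjustment over all 5376 genes and a threshold of 0.05. The script was tested on simulated data. Alternatives covered scaling, pseudocounts of 0.1 and 5, filters, the trend, GC content (a loess trend with a span of 0.5), a replicate block and each library left out. Positions, exon overlaps and GC content came from GENCODE v29 (GRCh38), which holds 19502 of the 19729 genes. The members and the gene lists were chosen with earlier results of these data known. Genes named beyond the members were those above 0 in the family, the genes called and up to 4 with the largest difference in each list, genes between SEMA3F and SEMA3B and the 5 nearest profiles. Others named, such as the receptors at 0 and the genes of the wider window, were chosen after their values were seen. Python 3.11.15 with pandas 2.3.3 was used for the rest.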

Additional observations from a re-analysis of the deposited data

How the results depend on the processing

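Of 111 recomputed differences of the members, 108 stayed within 1 SD of the value reported and none changed sign. Many of these could not have moved, so the count says little about stability. The filters and the replicate block leave a difference as it was. Leaving out 1 of 2 duplicates cannot shift it by more than this SD, which is pooled over the 2 groups. SEMA3F moved to 1.38 with a pseudocount of 5, and NRP1 left 0 for -0.0035 and -0.0149 under the scalings. Over the alternatives the difference ran from 1.38 to 2.01 for SEMA3F, 1.77 to 2.22 for SEMA3B and -1.23 to -1.07 for SEMA4B, and with 1 library left out from 1.70 to 2.0, 1.67 to 2.57 and -1.33 to -1.03. PLXNB2 ran from -0.44 to -0.09 and SEMA3C from 0.21 to 1.35 with 1 library left out.

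Counts of calls depended more on the settings. All genes called higher numbered 233, and 952 with no filter, 139 with at least 10 in every library and 387 with a GC content correction. Genes called lower numbered 199, and 305 with median-of-ratios scaling, 369 with equal totals, 515 with no filter and 341 with the GC content correction. Related genes called higher numbered 3, and 5 with equal totals, 6 with no filter, 1 with at least 10 in every library and 5 with the GC content correction. The 1 with at least 10 in every library was ARHGEF11 (adjusted p = 0.0481 with limma). None of the 3 of the main fit, SEMA4C, LIMK1 and CDK5, was called with either filter. Related genes called lower numbered 1, and 2 with either scaling, 3 with no filter and 0 with at least 10 in every library. Fits with 1 library left out have a single library in 1 group, and no counts of calls are given for them. Apart from the filters, which change the genes fitted, the cause was not tested.

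The replicate numbers are shared by the groups, but neither the labels nor the paper's text give them a common batch or day. The differences between I and II correlated at 0.724 between the conditions across genes. With a replicate block 523 genes were called higher and 500 lower, and 3 related genes higher and 3 lower. With the replicate block and the GC content correction together, 1562 and 1099 genes and 9 and 7 related genes were called. MST1R was called with the replicate block alone (adjusted p = 0.0474 with limma) and with both (0.00369). So was MICAL2, with an adjusted p of 0.0479 and 0.00565 from limma. DPYSL2, MICAL1, RRAS, FURIN, SEMA4G, VEGFA and ERBB2 were called with both (0.00368 to 0.0417 with limma). ARHGEF11, RRAS2 and RHOD were also called with both (0.0336, 0.0274 and 0.0429 with limma). Depth is unknown, and rounding to whole units limits NRP1, NRP2, SEMA4D and SEMA3F in NonS cells the most.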

Other observations

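The values of some genes of the plexin pathway that were too low for the fit are given here without a test. They were chosen after they were seen. DPYSL3, a collapsin response mediator, read 0 and 0 in NonS I and II, against 7 and 12 in APC shRNA I and II, and the small GTPase MRAS 0 and 0 against 4 and 5. FYN, a kinase that works with A-type plexins, read 3 and 2 in NonS and 7 and 7 in APC shRNA libraries. Among the proteases, MMP14 read 2 and 3 against 7 and 9, and PCSK6 8 and 8 against 4 and 4. ADAM10 read 11 and 5 against 6 and 3, and ROCK2 16 and 2 against 5 and 2, so that the groups overlapped and both genes, like SEMA3C, were higher in replicate I of each group.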
